A study of Mus musculus with 9 samples.

Results

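The mRNAs described here are those of 10 immediate early and short-lived genes, Fos, Jun, Junb, Jund, Myc, Ier2, Egr1, Atf3, Klf6 and Btg2. They were chosen by name, as short-lived mRNAs of which many carry AU-rich 3' untranslated regions. All 10 are among the 33732 gene names of the deposited table. RNA immunoprecipitation followed by sequencing (RIP-seq) recovers the RNA that comes down with an antibody. HuR is the RNA-binding protein encoded by Elavl1. The samples were whole healthy livers of C57BL/6 WT mice at 8 weeks of age, with no treatment named in the labels. The groups were 3 HuR RIP libraries, 3 libraries of RIP with control IgG, and Input, the RNA of the lysate. Each RIP used the lysate of 1 liver under native conditions, without a crosslinking step in the labels, and libraries were made with the Ion Total RNA-Seq Kit v2. The labels list 3 Input samples, but the values come as a single mean of them, so Input has no spread. The series sets out to find the RNAs that HuR holds in this tissue.

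Immediate early genes are transcribed within minutes of a growth factor, stress or injury signal, without new protein synthesis, and most of their mRNAs are degraded soon after. Much of that decay is directed by AU-rich elements in the 3' untranslated region (3' UTR), stretches built from the pentamer AUUUA. HuR binds U-rich and AU-rich RNA and is known for stabilising such mRNAs, while other proteins bound to the same elements recruit the enzymes that shorten the poly(A) tail. In liver these genes are best known from the response to partial removal of the organ, and the livers used here were unchallenged.

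The 3' UTRs of the members hold the letters that HuR is known to bind, and the stretches below show the densest such window for the 5 members with enough reads for a test, together with the most extended element found, in Fos. The motifs searched, on the sense strand of the longest annotated 3' UTR of each gene, were UUUUUUU, then UUAUUUAUU, then UAUUUAU, then AUUUA, and overlapping matches were each counted. UUUUUUU was present in 9 of 10 members, all but Atf3, against 47.1% of the 3926 tested protein-coding genes with an annotated 3' UTR. AUUUA was present in 9 of 10, all but Ier2, against 69.1%. UAUUUAU was present in 6 of 10 against 27.5%. The extended nonamer UUAUUUAUU was present in Fos alone among the 10, and in 6.83% of the tested genes. AU-rich 3' UTRs were part of the choice of the members, so a higher share than in other genes describes that choice. In the lines below (5' to 3', GENCODE M21 on GRCm38, also called mm10), capitals mark the matches to these motifs and T stands for U in the RNA.
Fos, chr12:85477103-85477132, plus strand: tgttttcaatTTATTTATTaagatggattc
Jund, chr8:70700311-70700340, plus strand: ctgcctttccTTTTTTTTTTgccttttgga
Ier2, chr8:84661435-84661464, minus strand: ggaaagaaaaTTTTTTTTTTaccagcgtgt
Atf3, chr1:191170338-191170367, minus strand: gaaaatattactTATTTATcccagtattcc
Klf6, chr13:5868304-5868333, plus strand: gaatttgaATTTAcTTTTTTTTTgagaatc
Btg2, chr1:134077237-134077266, minus strand: TATTTATacatgTTTTTTTTTTTTTTTTTT

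Longer 3' UTRs hold more matches, so each member was also set beside tested genes whose 3' UTR was within 25% of its own length. Jund, with a 3' UTR of 533 bases, had 4 matches to UUUUUUU, and 22.8% of genes of like length had any. Junb, with 485 bases, also had 4, against 18.6% of genes of like length with any. Ier2, with 755 bases, had 4 matches to UUUUUUU and none to the other motifs, against 30.4% of genes of like length with UUUUUUU. In each of Jund, Junb and Ier2 the 4 matches overlap within a single run of 10 U, so they are not separate sites. The longest 3' UTRs, those of Klf6 (3111 bases) and Btg2 (2199 bases), had 13 and 14 matches to UUUUUUU, where 80.1% and 66.7% of genes of like length had any. Most of the 14 matches of Btg2 overlap within the U run shown above. Fos carried 4 AUUUA, 2 UAUUUAU and 1 UUAUUUAUU in 815 bases, and 3.50% of genes of like length had the nonamer. For Myc the count depends on the annotated transcript: the longest 3' UTR (466 bases) had 6 UUUUUUU and 2 AUUUA, and the shortest (159 bases) had 0 of each. For AUUUA the shares of genes of like length were 96.8% for Klf6, 91.6% for Btg2, 78.2% for Atf3 and Jun and 77.9% for Egr1, so its presence in these 5 was common for their length. They were 61.0% for Fos, 49.9% for Jund, 42.7% for Junb and 42.3% for Myc. The A and U content of the 3' UTR was below the tested median of 55.1% in Ier2 (41.5%), Jund (42.4%), Junb (46.6%), Atf3 (50.3%) and Btg2 (52.4%), and above it in the other 5, up to 69.7% in Myc. A match is a description of the sequence and not a measured binding site.

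Levels are given as gene RPKM, reads per kilobase of merged exons and scaled to the reads of the library, which can be compared between genes. The libraries held 26.3 to 26.9 M reads for HuR, and 15.9, 26.7 and 28.8 M for IgG 1, 2 and 3 (M, mega). Reads in listed exons were 27.9% to 60.5% of these. The names of the HuR columns, and those of the IgG columns, carry the letters M, M and F for replicates 1, 2 and 3. In IgG 1, 2 and 3 Xist was at 0.00704, 0.103 and 0.359 RPKM. Y-linked genes (4, summed) were at 1.21, 0.340 and 0 RPKM there, so the IgG libraries went with the letters. Among the HuR libraries, however, Xist was at 10.2 RPKM in HuR 2 and 0.463 in HuR 3. The summed RPKM of 4 Y-linked genes was 0.0410 in HuR 2 and 3.52 in HuR 3, so these libraries went against the letters of their names. The names were followed; an exchange of the pair leaves the unblocked comparison of HuR with IgG as it is, since both are HuR libraries, and changes only a fit with the replicate number as a block. The labels tie each RIP to 1 liver but do not say whether HuR and IgG RIPs used separate animals, and p-values measure the spread between these libraries. Marker genes of hepatocytes summed to 1030 to 1101 RPKM in HuR, 322 to 840 in IgG and 845 in Input, with all 10 markers above 0. Cholangiocyte markers summed to 3.78 to 13.1 RPKM in HuR and 0.0467 to 0.684 in IgG, and macrophage markers to 12.7 to 21.2 and 3.72 to 35.2. The part of cell makeup in the values of the members was not tested. In bulk liver, fewer cells of a type and less RNA per cell cannot be told apart.

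Summed over the 10 members, the HuR libraries reached 19.5, 13.8 and 9.67 RPKM in replicates 1, 2 and 3, and the IgG libraries 9.79, 2.79 and 2.23 RPKM. The groups overlapped, since IgG 1 lay slightly above HuR 3. IgG 1, the library with the fewest reads, had the highest level of the IgG group for 8 of the 10 members. The exceptions were Junb, highest in IgG 2, and Btg2, highest in IgG 3. How often IgG 1 was the highest IgG library over all genes was not counted, so this need not be particular to the members. By mean level in the HuR libraries the order was Jund, Ier2, Atf3, Btg2, Klf6, Egr1, Junb, Myc, Jun and Fos. The ranges over the HuR libraries overlapped between neighbours in that order, except between Jund and Ier2 and between Myc and Jun.

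**Figure D1:**
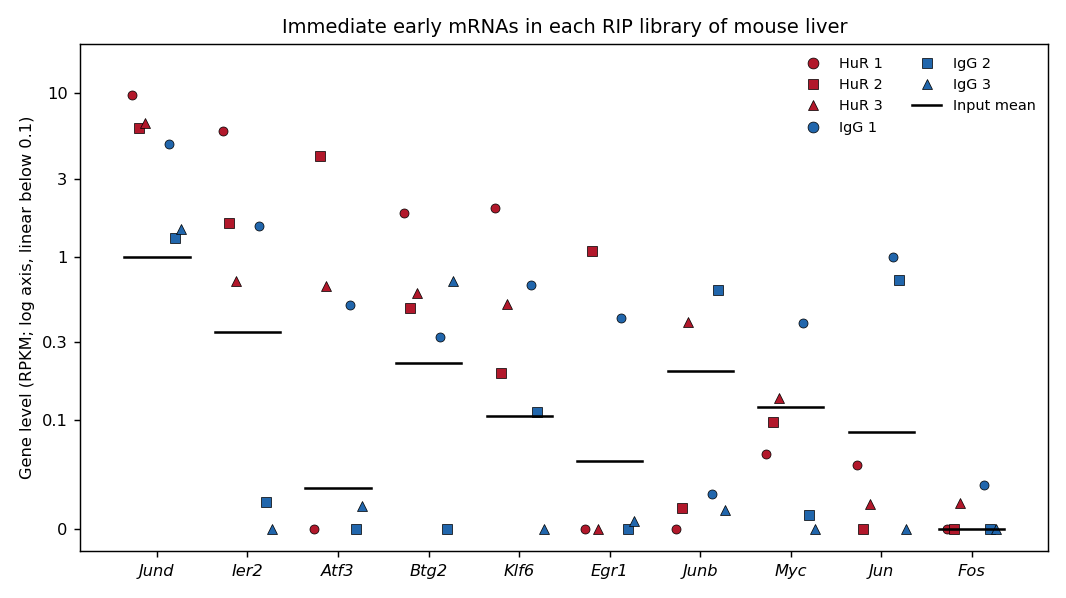
Gene level (RPKM, vertical axis, logarithmic above 0.1 and linear below) of the 10 members (horizontal axis, ordered by HuR mean) in each RIP library. Red symbols are HuR, blue are IgG, the symbol shape gives the replicate and the black line is the Input mean. Only Jund has all 3 HuR libraries above all 3 IgG libraries, and several members are at or near 0 in most libraries.

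Genes entered the test when at least 3 of the 6 RIP libraries reached 0.5 RPKM. Of the members, 5 did so: Jund, Ier2, Atf3, Klf6 and Btg2. Fos, Jun, Junb, Myc and Egr1 did not, and are given as values. HuR was compared with IgG by limma on log2(RPKM + 0.5), a scale that understates changes of low genes. With Benjamini-Hochberg adjustment over all 5510 tested genes, 0 members passed 0.05. In the same fit 0.799% of tested genes were called, 0.672% as higher with HuR and 0.127% as lower. Without adjustment, 27.9% of all tested genes were higher at a limma p under 0.05, among them Ier2 alone of the members, at 0.0411. The whole distribution lay toward HuR: the median log2 fold change of all tested genes was 0.92, and 79.1% were positive. Over the 3943 tested protein-coding genes, the class of the 5 tested members, the median was 1.08. Each member is therefore also given relative to the median of all tested genes, which is the lower of the 2.

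The Jun proteins form the AP-1 transcription factor by pairing with each other or with Fos proteins. Jund, the member of the family that most tissues express without stimulation, had the highest level here. It is a single-exon gene on the plus strand at chr8:70698949-70700616. Jund was at 9.72, 6.13 and 6.61 RPKM under HuR RIP (replicates 1, 2 and 3, in that order throughout), compared with 4.88, 1.30 and 1.48 RPKM under IgG RIP, and at 0.991 RPKM in Input. All 3 HuR libraries were above all 3 IgG libraries, the only member of which this was true, and 31.3% of all tested genes were separated in the same way. No member had all 3 IgG libraries above all 3 HuR libraries, as 3.48% of tested genes did. The HuR mean was 7.48 ± 1.95 RPKM and the IgG mean 2.55 ± 2.02 RPKM (SD, n = 3 each). The log2 fold change was 1.55 (SE 0.81, limma adjusted p = 0.184), which is 0.63 above the median of all genes. It ran from 1.27 to 2.05 when single libraries were left out, and was 0.14 under a TMM-like scaling and 0.45 with libraries centred at their medians. Over Input, the log2 ratios (with 0.5 added to each RPKM) were 2.78, 2.15 and 2.25 in HuR and 1.85, 0.27 and 0.41 in IgG. Part of Jund (877 bases) lies opposite the antisense gene Gm11175, itself at 1.61, 0.0433 and 1.29 RPKM under HuR RIP, compared with 3.67, 1.20 and 0.0396 RPKM under IgG RIP. Whether counting used the strand is not given in the sources used here, so reads of the pair may not be separated. Although Jund is a single exon, its recovered reads were not all whole: 431.495 in HuR 1, 296.5 in HuR 3 and 57.8325 in IgG 2. Some reads may thus have been split between Jund and Gm11175, which was not tested.

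The mRNAs whose levels over the 6 RIP libraries were most like those of Jund, among 2317 protein-coding candidates, were those of Serpina1a and Tat, hepatocyte genes for a secreted protease inhibitor and for tyrosine aminotransferase. Likeness was the Euclidean distance between centred log2 values, 0.33 for Serpina1a and 0.35 for Tat. Serpina1a was at 77.9, 48.5 and 60.0 RPKM under HuR RIP, compared with 46.0, 17.1 and 15.0 RPKM under IgG RIP. The pattern of Jund, with the IgG libraries lower and IgG 1 the highest of them, occurred also in these abundant hepatocyte mRNAs. They were picked for likeness over these same 6 libraries, so a shared pattern follows from the choice. Alb, the albumin gene, had groups that did not overlap either, at 430, 442 and 444 RPKM under HuR RIP, compared with 291, 135 and 345 RPKM under IgG RIP (log2 fold change 0.88, SE 1.06, limma adjusted p = 0.546).

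Jun, the founding member of the family and a gene induced by stress kinases, showed another arrangement. It is a single-exon gene at chr4:95049034-95052222 on the minus strand. Jun was at 0.0589, 0 and 0.0233 RPKM under HuR RIP, compared with 0.999, 0.718 and 0 RPKM under IgG RIP, with 0.0894 in Input. The HuR libraries held 5, 0 and 2 reads, and IgG 1, 2 and 3 held 50.5, 61.0 and 0 reads. All 3 HuR libraries were below the Input mean, and the groups overlapped because IgG 3 was at 0. The mean difference, HuR minus IgG, was -0.88 on the log2(RPKM + 0.5) scale, the lowest of the 10 members. Jun was not tested because only 2 libraries reached 0.5 RPKM. The gene overlaps the antisense RNA gene Junos over 232 bases.

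Junb, a family member with weaker activating capacity than Jun, was at 0, 0.0192 and 0.400 RPKM under HuR RIP, compared with 0.0318, 0.625 and 0.0175 RPKM under IgG RIP, with 0.201 in Input. Nearly all reads came from 1 library of each group, 21 of 22 in HuR 3 and 33 of 35 in IgG 2. The mean log2 difference was -0.14 and the groups overlapped. The 3'-most listed block of Junb (173 bases) overlaps Prdx2 on the other strand and does not hold the annotated 3' UTR. It had 4 HuR reads and 0 IgG reads, the latter of 35 reads of the gene, which allows a share of up to 8.57%.

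Fos, the partner of the Jun proteins in AP-1 and the textbook example of an AU-rich, rapidly degraded mRNA, was barely present. It had 1 read in HuR 3 (0.0237 RPKM), 1 read in IgG 1 (0.0403 RPKM), and 0 in the other RIP libraries and in Input. A count of 0 allows 3 reads, or up to 0.0720 RPKM in HuR 1 and 0.0665 RPKM in IgG 3. The member with the most extended AU-rich element thus gave no measurement of HuR association at this depth. The listed exons cover 66.5% of the annotated exonic bases of Fos.

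Atf3, a stress-induced factor that binds AP-1 and CRE sites and can pair with Jun proteins, had its reads in few libraries. It was at 0, 4.15 and 0.662 RPKM under HuR RIP, compared with 0.504, 0 and 0.0213 RPKM under IgG RIP, and at 0.0373 RPKM in Input. HuR 2 held 178 of the 207 HuR reads, HuR 1 held 0, and the groups overlapped. The log2 fold change was 1.12 (SE 0.67, limma adjusted p = 0.244), 0.20 above the median of all genes. It was 0.25 without HuR 2 and 1.86 without HuR 1, and 0.02 with libraries centred at their medians. The 2 mRNAs nearest to Atf3 in pattern, Rbbp9 and Orm2 (distances 0.41 and 0.53), also had their highest level in HuR 2. A shared peak follows from picking them for likeness over the same libraries. Orm2, an acute-phase plasma protein gene, was at 0.194, 6.13 and 0.767 RPKM under HuR RIP, compared with 0.895, 0 and 0.0448 RPKM under IgG RIP.

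Egr1, a zinc-finger factor induced through MAP kinase and serum response factor, was in the HuR group found in the same library alone. It was at 0, 1.08 and 0 RPKM in HuR, with 128 reads in HuR 2, and at 0.422, 0 and 0.00774 RPKM in IgG, with 30 reads in IgG 1 and 1 in IgG 3. Input was at 0.0625 RPKM. The groups overlapped, and with 1 library at 0.5 RPKM or more Egr1 was not tested (mean log2 difference 0.25). HuR 2 was also the library with the high Xist value. Its summed level of 8 sinusoidal endothelial markers was 13.2 RPKM against 1.03 to 6.17 RPKM in the other RIP libraries. Its summed level of 8 lymphocyte markers was 3.63 RPKM against 0 to 2.03 RPKM, with Cd8a and Nkg7 at 0 in all RIP libraries. The other non-hepatocyte lists were highest elsewhere. Stellate and cholangiocyte markers were highest in HuR 1 (9.70 and 13.1 RPKM), neutrophil markers in IgG 1 (1.66 RPKM) and macrophage markers in IgG 3 (35.2 RPKM). The part of the Xist and marker levels in the values of Atf3 and Egr1 was not tested.

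Klf6, a zinc-finger factor of the Krüppel-like family that is induced on injury, lies at chr13:5861482-5870394 on the plus strand. Klf6 was at 1.97, 0.193 and 0.516 RPKM under HuR RIP, compared with 0.671, 0.113 and 0 RPKM under IgG RIP, and at 0.106 RPKM in Input. Every HuR library was above Input, but IgG 1 was above HuR 2 and HuR 3. The log2 fold change was 0.76 (SE 0.56, limma adjusted p = 0.335), 0.16 below the median of all genes, and it turned to -0.34 once libraries were centred at their medians and to -0.17 on the largest single exon. Without HuR 1, which held 227 of the 309 HuR reads, it was 0.24.

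Myc, the growth-promoting factor that pairs with Max, was low in every HuR library. It was at 0.0693, 0.0980 and 0.137 RPKM under HuR RIP, compared with 0.395, 0.0133 and 0 RPKM under IgG RIP, and at 0.120 RPKM in Input. The HuR libraries held 5, 7 and 10 reads, and IgG 1 held 17 of the 18 IgG reads. The groups overlapped and the mean log2 difference was -0.03.

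Ier2, the mRNA of an immediate early nuclear protein, had the largest fold change of the tested members in the fit as described. Jund was higher with a pseudocount of 1 (1.37 against 1.18) and without IgG 3 (1.33 against 1.29), and Atf3 (1.86) and Jund (1.36) were higher than Ier2 (0.97) without HuR 1. It is a single-exon gene at chr8:84661331-84662852 on the minus strand. Ier2 was at 5.88, 1.60 and 0.708 RPKM under HuR RIP, compared with 1.53, 0.0246 and 0 RPKM under IgG RIP, and at 0.348 RPKM in Input. The HuR libraries held 238, 64 and 29 reads, and IgG 1 held 37 of 38 reads. All HuR libraries were above Input and above IgG 2 and IgG 3, and the groups overlapped because IgG 1 was above HuR 3. The log2 fold change was 1.64 (SE 0.76, limma adjusted p = 0.147), 0.72 above the median of all genes and higher than that of 79.7% of them. It was 0.54 with libraries centred at their medians.

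Btg2, an antiproliferative protein that binds the CCR4-NOT deadenylase and promotes poly(A) shortening, lies at chr1:134075170-134079120 on the minus strand. Btg2 was at 1.85, 0.485 and 0.596 RPKM under HuR RIP, compared with 0.322, 0 and 0.708 RPKM under IgG RIP, and at 0.222 RPKM in Input. Every HuR library was above Input, but IgG 3 was above HuR 2 and HuR 3. The log2 fold change was 0.78 (SE 0.58, limma adjusted p = 0.335), 0.14 below the median of all genes, and it turned to -0.32 once libraries were centred at their medians. It was 0.39 without HuR 1. The nearest mRNAs in pattern were Klf15 and Tmub2 (distances 0.54 and 0.57), each with IgG 3 as the highest IgG library too, a likeness for which they were picked.

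**Figure D2:**
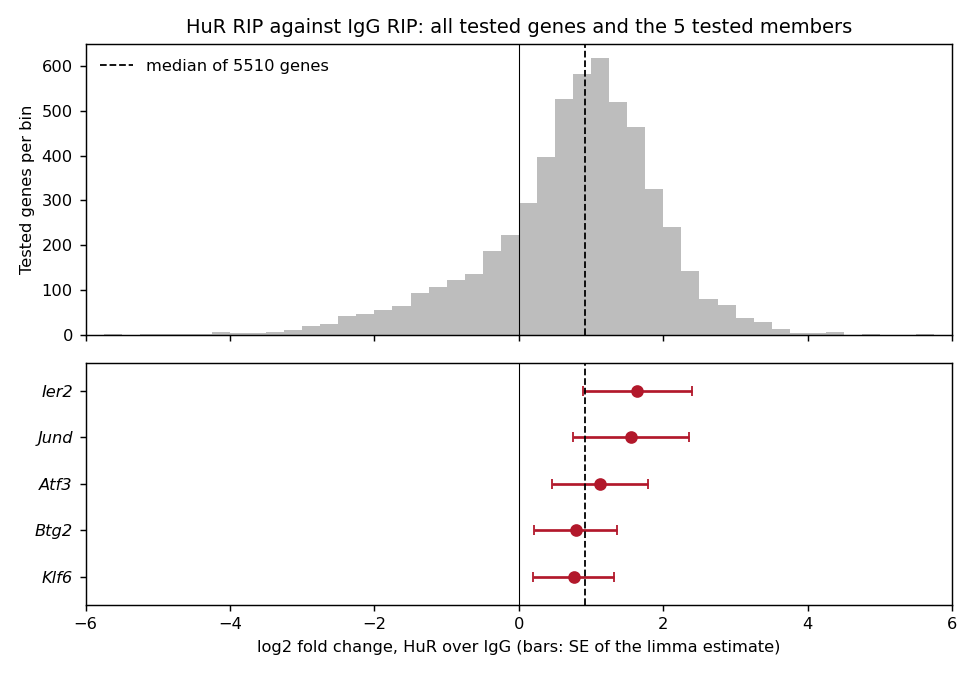
Log2 fold change of HuR over IgG (horizontal axis, log2(RPKM + 0.5) scale). The upper panel counts the 5510 tested genes per bin of fold change, with their median of 0.92 dashed; the lower panel shows the 5 tested members with the standard error of the limma estimate. Ier2, Jund and Atf3 lie above the median and Btg2 and Klf6 below it, and the standard error of each of the 5 spans it.

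Against Input, which carries no test, 4 of the 10 members had all 3 HuR libraries above the Input mean: Jund, Ier2, Klf6 and Btg2. All 4 were among the 5 tested members. The same held for 25.4% of all genes above 0 in a RIP library, for 68.9% of all tested genes and for 76.1% of the tested protein-coding genes. The mean log2 ratio of HuR to Input was 2.39 for Jund, 1.58 for Ier2, 1.37 for Atf3, 0.99 for Klf6 and 0.92 for Btg2. For the 5 members below the filter it ran from -0.19 for Junb to 0.38 for Egr1. Counting all 10 members, tested or not, 6 had a positive mean log2 difference between HuR and IgG. These included all 5 tested members, and 79.1% of all tested genes were positive. The median over the 10 was 0.51. Over all 28263 genes above 0 in a RIP library it was 0.09, but only 5510 of these passed the filter, against 5 of the 10 members. Since the scale draws differences of low genes toward 0, these 2 medians are not like for like.

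The exon table allows a look at where in the mRNA the reads lay. Exons of a gene that overlap were merged into blocks, and the 3'-most block of Klf6, Btg2 and Atf3 is mostly 3' UTR (98.4%, 86.8% and 85.7% of its length). In Myc and Egr1 that share is 45.3% and 48.3%, so reads in their last block need not lie in the 3' UTR. In Klf6, all 309 HuR reads were in the last block, and the 0 reads elsewhere allow a share of up to 0.971%. Of the 59 IgG reads, 34 were in the last block, 24 were in the second block, at chr13:5864678-5865344, and 1 was in the first. Those 24 reads came from IgG 1 (18) and IgG 2 (6). The last block makes up 73.2% of the listed length of Klf6, so the HuR reads were more concentrated at the 3' end than an even spread over the exons, and the IgG reads less. The share of reads in last blocks over all genes was not computed, so the placement is not set against that of the libraries as a whole.

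Myc had far fewer reads, and unlike those of Klf6 its HuR reads were not all in the last block. Of 22 HuR reads, 13 were in the last block, with reads from all 3 HuR libraries, and 9 were in the first, all from HuR 3. HuR 3 gave only 1 read to the last block. All 18 IgG reads, 17 of them from IgG 1, were in the third block, at chr15:61987422-61988278, where HuR had 0. A count of 0 allows a share of up to 13.6% of the HuR reads and 16.7% of the IgG reads of Myc. Egr1 had 127 of 128 HuR reads in its last block, all from HuR 2, and 24 of 31 IgG reads. In Btg2 and Atf3 nearly all reads of both groups were in the last block, 213 of 214 and 207 of 207 with HuR and 68 of 70 and 14 of 14 with IgG. These are sums over 3 libraries in which 1 often gives most reads, and reads of a library are not independent molecules. The difference in placement was therefore not tested.

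**Figure D3:**
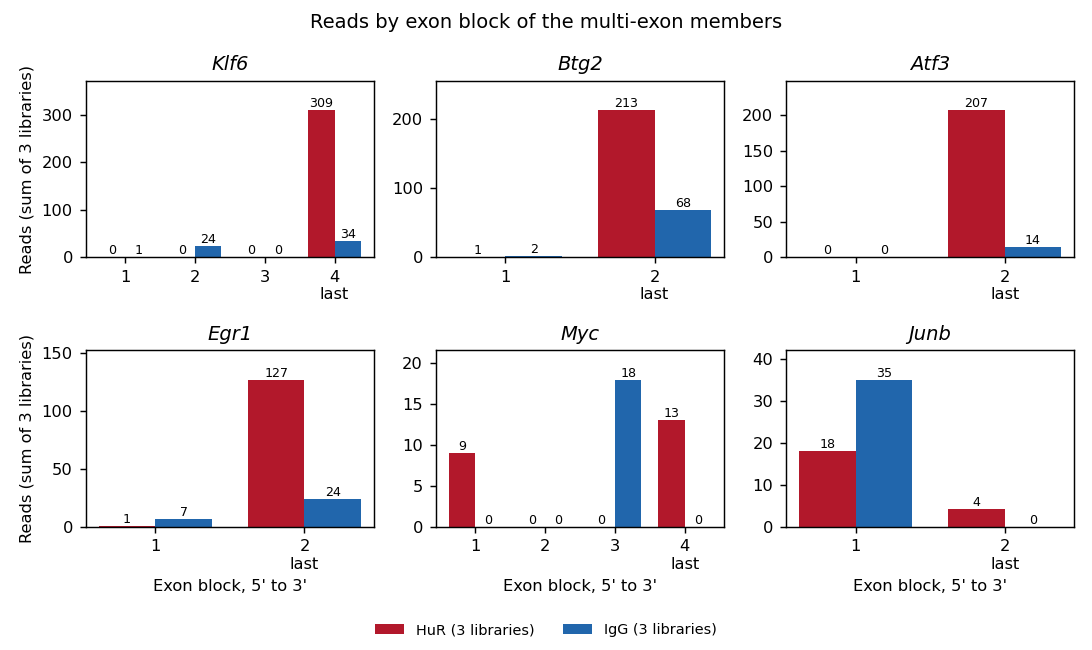
Reads (vertical axis, summed over the 3 libraries of a group and rounded) in each exon block, numbered from the 5' end (horizontal axis), for 6 members with more than 1 listed block; red is HuR and blue is IgG, and each panel has its own scale. In Klf6 the 309 HuR reads are all in the last block while 24 IgG reads are in block 2. In Myc the 13 HuR reads of the last block face 0 of 18 IgG reads, which allows a share of up to 16.7%, and 9 HuR reads are in block 1.

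Fitted by block, the last blocks of Jund, Ier2, Atf3, Klf6 and Btg2 could be tested, and 0 of these 5 had an adjusted or an unadjusted p under 0.05. Over 11470 tested blocks, limma with adjustment over all of them called 0 (0%) higher or lower with HuR, and at p under 0.05 without adjustment it found 1744 blocks higher and 414 lower. The median log2 fold change of all blocks was 0.82. The last block of Klf6 was at 1.09 (limma adjusted p = 0.403), above its gene value of 0.76, and turned to -0.11 once libraries were centred at their medians. That of Atf3 was at 1.20 (limma adjusted p = 0.449) and that of Btg2 at 0.83 (limma adjusted p = 0.511), and these turned to -0.01 and -0.37 under the same centring. In the authors' deposited table, 33 of the 39 listed exons of the members carry a p-value for HuR against IgG, and 0 of them are under 0.05. Of 136005 exons with a p-value in the authors' deposited table, 2.3% are under 0.05 and 0 have a q-value under 0.05. Any p-value written with a decimal comma was left out of these exons, so the 2.3% does not cover such values. The lowest q-value over all lines is 0.110. The lowest p-value of a member, in the authors' deposited table, is that of the Jund exon at 0.0708, with q-values of the members from 0.541 to 0.804.

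Genes around the members were drawn from 6 lists, chosen by function and with earlier results of these data known. None of their tested genes passed the limma test at an adjusted 0.05. At an unadjusted p under 0.05, the genes higher with HuR were 8 of 21 other immediate early genes, 5 of 11 AP-1 and CRE partners, 0 of 2 in the Myc and Max network, 5 of 9 relatives of Egr1 and Klf6, 8 of 12 in the Btg and deadenylation list and 2 of 12 upstream genes, and 0 were lower. Of all tested genes, 27.9% were higher and 3.19% lower by the same measure. The tested list genes are protein-coding, apart from Cyr61, which is not in the annotation. In a separate limma fit on protein-coding genes only, 1575 of 3943 were higher at an unadjusted p under 0.05. The list counts come from the fit on all genes, so they are not like for like with that count. Other immediate early genes, 50 in all, had 21 tested, 19 with a positive log2 fold change and a median of 1.54. Behind Mcl1, its lowest p-values belonged to Nfkbia, the inhibitor of NF-kB that NF-kB itself induces, with 2.59 (limma adjusted p = 0.0700), and to Dusp6, a phosphatase of ERK, with 1.93 (limma adjusted p = 0.0700). Nfkbia was at 7.05, 5.43 and 6.72 RPKM under HuR RIP, compared with 1.76, 0.816 and 0 RPKM under IgG RIP, with Input at 0.571. Dusp6 was at 1.74, 2.13 and 1.50 RPKM under HuR RIP, compared with 0.206, 0.110 and 0 RPKM under IgG RIP, with Input at 0.358. The HuR means were 6.40 ± 0.857 and 1.79 ± 0.317 RPKM (SD, n = 3 each), and neither gene had overlapping groups. Cebpb, a liver transcription factor of the acute-phase response, followed at 2.35 (limma adjusted p = 0.0981).

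Partners of AP-1 and CRE-binding factors had 11 of 23 genes tested, all with a positive log2 fold change, with a median of 1.58. Atf5, a stress-response factor abundant in liver, was at 2.76 (limma adjusted p = 0.0815) and Maf, a bZIP factor that can pair with Fos, at 1.97. Nfe2l1, a regulator of proteasome genes, was at 7.77, 10.9 and 4.52 RPKM under HuR RIP, compared with 3.06, 0.635 and 0.287 RPKM under IgG RIP, a log2 fold change of 2.40. The relatives of Egr1 and Klf6 had 9 of 23 tested, all positive, with a median of 1.49. Among them Klf3, a repressor of the family, was at 0.720, 0.735 and 0.756 RPKM under HuR RIP, compared with 0.140, 0.104 and 0 RPKM under IgG RIP (log2 fold change 1.10, limma adjusted p = 0.123). Sp3 was at 1.68 and Klf12 at 1.99.

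Genes of the Btg and Tob proteins and of deadenylation, the machinery that Btg2 acts with, had 12 of 21 tested, all positive, with a median of 1.56. Cnot9, a subunit of CCR4-NOT, was at 0.966, 1.16 and 0.625 RPKM under HuR RIP, compared with 0, 0 and 0.0343 RPKM under IgG RIP (log2 fold change 1.45, limma adjusted p = 0.0760). Btg1, the closest relative of Btg2, was at 2.56, 1.58 and 1.21 RPKM under HuR RIP, compared with 0.418, 0.0640 and 0.0460 RPKM under IgG RIP, with Input at 0.345. Its log2 fold change was 1.76 (limma adjusted p = 0.0858) and its groups did not overlap, while those of Btg2 did. The upstream MAP kinase and serum response factor genes had 12 of 29 tested, 10 of them positive, with a median of 0.76. Elk4, a cofactor of serum response factor, was at 1.73. The Myc and Max network had only Mxd4 and Mlxipl tested of 12 genes, at 1.35 and 1.21. Beside the medians of 0.92 of all tested genes and 1.08 of tested protein-coding genes, 5 of the 6 list medians were higher and that of the upstream genes was lower. The share with a positive log2 fold change was 79.1% over all tested genes. These are descriptions without a test.

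**Figure D4:**
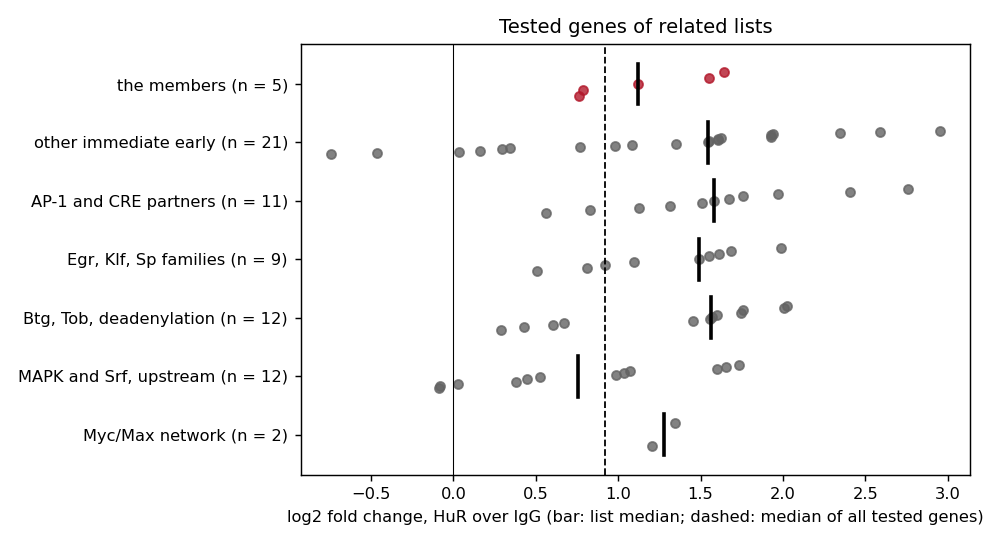
Log2 fold change of HuR over IgG (horizontal axis) for the tested members (red) and the tested genes of 6 related lists (grey; 1 point per gene, vertical offset only for legibility), with list medians as bars and the median of all 5510 tested genes dashed. The medians of 5 related lists lie between 1.28 and 1.58, and that of the upstream genes is 0.76.

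The weights given to libraries decided whether any member was called. With limma's sample quality weights, which count noisier libraries less, Jund was at 1.99 and Ier2 at 2.01, both with an adjusted p of 0.0179, and the other 3 tested members were not called. Under the same weights 41.7% of all tested genes were called higher. Over all alternatives run, the adjusted p ranged from 0.0179 to 0.922 for Jund and from 0.0179 to 0.682 for Ier2. When single libraries were left out, the lowest adjusted p of both came without IgG 1, at 0.0543 for Jund and 0.0603 for Ier2.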

How the data were processed

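The authors deposited 1 table of exon RPKM per RIP library, an Input mean, log2 folds over Input, and, for each exon, a p-value and q-value of the HuR and IgG contrast; per the submitters' processing notes, Bowtie2, featureCounts and mm10 were used, with versions, options and the test not given in the sources used here. Every number that reaches 1 had no decimal mark in the deposited file. They were restored from the authors' log2 fold columns, where 138761 of 138826 distinct value lines fitted all 6 folds and the other 65 fitted 5, with 1 line open to 2 readings. The fold columns are numbered in file order, which exchanges HuR 2 and 3 relative to the RPKM column names.

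Reads over overlapping listed exons had been split between them, so gene RPKM was the sum of RPKM times length over all lines, divided by merged exon length. Reads were recovered from the step between values. Between 85.1% and 90.8% of gene sums were whole within 0.05 of a read, and since reads were split, no count model was used. Reads are not independent molecules, so limits from counts cover counting error only. The 33732 gene names were tested where 3 of 6 libraries reached 0.5 RPKM, with limma 3.58.1 (R 4.3.3; trend, robust, two-sided, Benjamini-Hochberg, 0.05), after a check on simulated data. The exon fit was planned on distinct exons and run on merged blocks, because reads are split. The 3' UTRs and positions are from GENCODE M21; all 10 members matched, and no sequence of chromosome 18 is printed. Tables were joined with Python 3.11.15, numpy 2.4.6 and pandas 2.3.3, and figures drawn with matplotlib 3.10.9.

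The members, the 6 related lists and the marker lists were chosen with earlier results of these data known. Named genes were the members, Alb, Elavl1, up to 5 genes per list by smallest p, and the 2 protein-coding genes nearest to each tested member in pattern, not all of which are printed. Alternatives were other scalings, filters, pseudocounts, moderation, quality weights, protein-coding genes only, the replicate block, other exon and 3' UTR choices, and leaving out libraries. Of these, the block with HuR 2 and 3 exchanged and the fit on distinct exons were chosen after seeing the data.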

Additional observations from a re-analysis of the deposited data

How the results depend on the processing

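The 0 calls among the members held under every setting of the gene fit except sample quality weights, where 2 were called (Jund 1.99 and Ier2 2.01), while the number of called genes over the whole table moved widely. From 37 higher and 7 lower by limma, it went to 1 and 18 with libraries centred at their medians, 5 and 4 with quantile normalization, 145 and 21 with a filter at 1 RPKM, 3 and 1 with a pseudocount of 1, and 2296 and 84 with quality weights. It was 728 higher among protein-coding genes only and 346 lower (50 higher) with a TMM-like scaling. Limma called 0 and 0 without a filter and 0 and 0 without trend and robust moderation, where 1193 and 1437 genes were higher at an unadjusted p under 0.05. Leaving out 1 library gave 0 to 724 higher and 0 to 35 lower: 0 and 0 without IgG 2 (803 higher unadjusted), 724 and 17 without IgG 1, 41 and 35 without IgG 3, 15 and 5 without HuR 1, 90 and 13 without HuR 2, and 72 and 15 without HuR 3. Without HuR 3 and IgG 1 together the count was 0 and 0 (2097 unadjusted). With the replicate number as a block, limma called 0 and 0 (1665 unadjusted), and 0 and 0 with HuR 2 and 3 exchanged (1653 unadjusted); the block changed no call of a member. Same-numbered libraries correlated at r = 0.14, 0.12 and 0.09 in their deviations across genes, each HuR library most with its own number, which does not show that the numbers pair the samples. The median of all genes moved from 0.92 to -0.18 with centring, 0.08 with the TMM-like scaling and 0.05 with quantile normalization. The median of the tested members moved from 1.12 to 0.022, 0.30 and 0.51 under these, and to 1.74 with a pseudocount of 0.1. Signs turned with centring for Klf6 (-0.34) and Btg2 (-0.32) and for the last blocks of Btg2 (-0.37), Klf6 (-0.11) and Atf3 (-0.0063), and on the largest single exon for Klf6 (-0.17). In the shortest annotated 3' UTR of Myc, UUUUUUU and AUUUA each fell to 0 matches. The cause of these moves was not tested. Fos, Jun, Junb, Myc and Egr1 are descriptions only, since fewer than 3 libraries reached 0.5 RPKM.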
